A study of Mus musculus with 6 samples.

Results

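Translation initiation and elongation factors are the proteins that bring the messenger RNA, the initiator tRNA and the ribosomal subunits together and then move the ribosome along the message. The genes described here are the mouse protein-coding genes with symbols starting Eif1 to Eif6, Eef1 or Eef2, without the Eif2ak kinases, Eif2s3y, the Eif4ebp genes and pseudogenes. Of 27179 rows in the count table, 61 met this definition; 69 protein-coding symbols had these starts and 8 of them were left out. The cells were mouse embryonic stem cells of the ES-E14TG2a background, grown on gelatin in 2i + Lif medium, which holds them in a naive pluripotent state with inhibitors of MEK (PD0325901) and GSK3 (CHIR99021). The 3 WT libraries came from FLAG-Trim71 (WT) cells and the 3 R783H libraries from FLAG-Trim71 (R783H) cells, so both groups carried a FLAG tag on Trim71, a TRIM-NHL protein that binds RNA. The R783H change is one that the series connects with hydrocephalus, and the comparison asks how the transcriptome differs between these cells. Whether A, B and C are clones, cultures or repeat preparations is not in the labels, so p-values measure only the spread between these libraries.

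Initiation starts when eIF2 with GTP and the initiator tRNA joins the small ribosomal subunit together with eIF1, eIF1A, eIF3 and eIF5. The eIF4 factors recognise the cap of the messenger RNA, unwind it and load the subunit, which scans to a start codon. In elongation eEF1A delivers charged tRNAs and eEF2 moves the ribosome by a codon. Some of these factors, and nearly all ribosomal proteins, are encoded by messages of the TOP class, which begin with a C followed by a stretch of pyrimidines and whose translation responds to mTOR.

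Sequences around annotated start sites are shown for the TOP-class members with a window in the RefSeq promoter table (GRCm38.p6, the same assembly as mm10) and for 3 members of contrasting behaviour, because a pyrimidine run at the start defines the class. Each window runs 5′ to 3′ on the strand of the gene and holds 30 bases before the annotated start and 30 bases from it onwards, and the capitals mark the longest run of C and T that begins with C.
Eef1a1, minus strand, chr9:78481695-78481754: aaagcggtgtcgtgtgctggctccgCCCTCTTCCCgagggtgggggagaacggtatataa
Eef2, plus strand, chr10:81176601-81176660: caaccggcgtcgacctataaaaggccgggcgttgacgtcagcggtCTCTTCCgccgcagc
Eif4b, plus strand, chr15:102073743-102073802: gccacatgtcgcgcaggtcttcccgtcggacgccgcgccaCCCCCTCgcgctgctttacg
Eif3f, plus strand, chr7:108934385-108934444: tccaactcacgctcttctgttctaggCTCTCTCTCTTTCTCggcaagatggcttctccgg
Eef1b2, plus strand, chr1:63176801-63176860: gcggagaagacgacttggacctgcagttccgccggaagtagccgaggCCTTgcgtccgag
Eif2b5, plus strand, chr16:20498787-20498846: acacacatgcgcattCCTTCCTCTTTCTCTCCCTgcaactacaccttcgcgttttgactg
Eif4a1, minus strand, chr11:69672394-69672453: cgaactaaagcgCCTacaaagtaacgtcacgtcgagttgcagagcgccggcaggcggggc
Eif4a2, plus strand, chr16:23107438-23107497: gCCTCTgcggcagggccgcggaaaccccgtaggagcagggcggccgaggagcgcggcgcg
With the annotated start base as position 0, the run began at position -5 in Eef1a1 and at position -4 in Eif3f, and was 10 and 15 nt long. In Eif2b5, which is not on the TOP list used here, it was 19 nt long and began at position -15. Eif2s3x, also off that list and called lower in R783H, had a run of 12 nt from position -1, and its window is not shown. Runs of at least 8 nt, searched on the strand of the gene alone, were in 18.2% of all 32851 windows of this length, in 15 of the 61 member windows (24.6%), which belong to 47 genes, and in 2 of the 5 TOP-class members with one. An annotated start can lie some bases away from the start used in these cells, and a run is a match of letters, not a measured feature of the RNA. In Eef1a1 the TATA-like letters tatataa follow the run at the end of the window. The start used may therefore lie beyond this window, and the marked run may not be part of the RNA.

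Total counts ran from 20894277 to 29079670, and each R783H library was deeper than each WT library. Levels are CPM, counts scaled to a common library size with TMM factors, and 3 counts, taken as the floor of detection, corresponded to 0.0998 to 0.149 CPM for counting error alone. Trim71 itself was at 151.7, 129 and 150.5 CPM in R783H A, B and C and at 130.8, 131.2 and 159.4 CPM in WT A, B and C, with edgeR adjusted p = 0.743; gene counts cannot show a change of residue, so this does not check the genotype. ES cell markers were high in both groups, with 8 of 8 tested, 1 higher, 3 lower and summed levels of 6217 to 6299 CPM against 6548 to 6643 CPM. Summed markers of fibroblast feeders were at 2.19 to 3.09 against 3.28 to 3.86 CPM, of trophoblast at 13.9 to 14.8 against 30.6 to 32.9, of extraembryonic endoderm at 10.18 to 11.04 against 5.14 to 7.48, of neural cells at 83.3 to 91.2 against 116.2 to 121.2, and of mesoderm at 36.8 to 42.1 against 62.5 to 66.6 CPM, with no marker at 0 in all libraries. In the neural list the sum followed Tubb3, which was lower, while Sox1 and Map2 were called higher and the median log2 fold change was 0.27. The trophoblast sum followed Tfap2c (mean 10.1 against 23.8 CPM). Cdx2 was also called lower, but Gata3 was called higher (log2 fold change 0.732). The extraembryonic endoderm sum followed Gata4 (6.68 against 3.19 CPM). Sox17 was also called higher, and Gata6, Pdgfra and Dab2 were not called. The part of these differences in the values of the translation factors was not tested, and in such bulk samples fewer cells of a type cannot be told apart from less RNA per cell.

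R783H B stood apart from the other R783H libraries in most members. In 47 of the 58 tested members its CPM lay farther from R783H A and C than 2 times the gap between those libraries, against 1 member for R783H A and 6 for R783H C. The corresponding numbers were 18, 4 and 19 for WT A, B and C. The same count was not made over all tested genes, so it is not shown to be particular to the members. Over all tested genes, 9882 were called without R783H B and 9152 with all libraries. Calls that change without R783H B are given both ways, and signs that turn without it are given in the last section.

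Most of these messages were lower in R783H. Of the 61 members 58 passed the filter on low counts, and edgeR's quasi-likelihood test, adjusted by the Benjamini-Hochberg method over 14199 genes, called 38 of them lower and 8 higher at an adjusted p under 0.05 and left 12 uncalled. Thus 65.5% of the tested members were called lower and 13.8% higher. Among all tested genes 64.5% were called, 30.9% lower and 33.5% higher. The share called lower among members was above that background, and the share called higher was below it. Counts for single complexes, given below, are to be read against the same background shares. The groups had no overlap in CPM in 48 of the 58 members, against 68.1% of all tested genes. The median log2 fold change of the tested members, R783H over WT, was -0.32, against 0.03 for all tested genes, and 45 of 58 values were negative. Without R783H B, 42 members were called lower and 7 higher, and the median was -0.36.

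**Figure D1:**
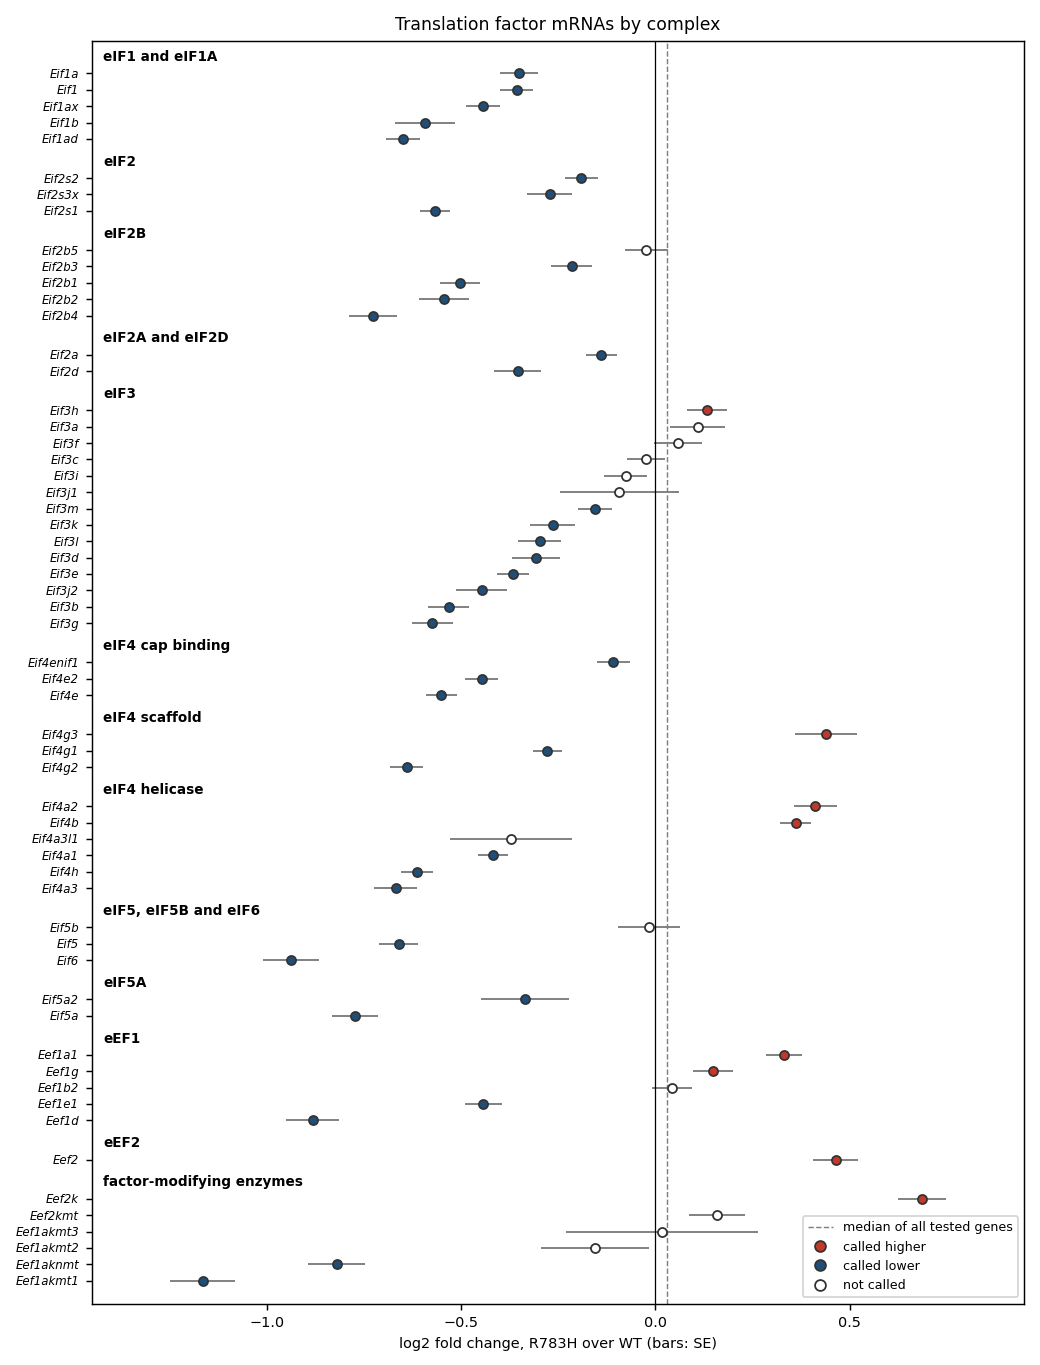
Log2 fold change (x axis, R783H over WT, bars: SE) of the 58 tested members, grouped by complex, with filled points for members called at an adjusted p under 0.05; the dashed line is the median of all tested genes at 0.03. Most points lie to the left of 0, and the 8 red points to the right are Eif3h, Eif4g3, Eif4a2, Eif4b, Eef1a1, Eef1g, Eef2 and Eef2k.

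The changes were small in size. Among the 46 called members the median absolute log2 fold change was 0.44, against 0.48 among all called genes. In 33 of the 46 the change was under 1.5-fold, and in 1, Eef1akmt1, the log2 fold change was at least 1 in size. The log2 fold changes of the members had Spearman correlations of 0.18 with transcript length, -0.18 with GC content and 0.07 with the WT level per kb over 58 genes of the same libraries, given as a description. Adding a length and GC offset to the fit left the members' median at -0.33.

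Genes that share reads with others can be miscounted. A near-identical stretch (at least 98% identity over at least 100 nt) elsewhere in the transcriptome was found for 23 members and exon overlap with another annotated gene for 24, together 30 members. Strand use is not given in the sources used here, so reads of overlapping and antisense genes cannot be separated. Of the 31 members with neither, 29 were tested, 19 were called lower and 4 higher, and their median was -0.34. Near-identical stretches were found for Eef1a1, Eef1b2, Eef1g, Eif1, Eif1ad, Eif2s2, Eif2s3x, Eif2b4, Eif3d, Eif3j1, Eif3j2, Eif3m, Eif4e, Eif4e3, Eif4a1, Eif4a2, Eif4a3l1, Eif5b, Eif6, Eif5a, Eef1akmt3, Eef2k and Eef2kmt. Overlap alone was found for Eef1d, Eif1b, Eif2a, Eif2d, Eif4g1, Eif4g2 and Eif5. How such reads were counted is not known here, so these counts are uncertain.

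The genes of eIF1 and eIF1A, which bind the small subunit and keep it open for scanning, were called lower, as was Eif1ad, which is grouped with them by its symbol. The 5 genes had a median log2 fold change of -0.44. Values are given in the order A, B, C, with R783H first. Eif1, the highest of them per transcript length, was at 168.4, 176.0 and 166.5 CPM in R783H and 220.6, 215.6 and 218.4 CPM in WT. Eif1ad, which encodes a protein with an eIF1A-like domain and is not an eIF1A gene, was at 63.2, 64.1 and 61.9 CPM against 99.3, 99.7 and 97.7 CPM. The groups were far apart for Eif1ad beside the spread within them, with a log2 fold change of -0.65 (SE 0.04, edgeR adjusted p = 4.17e-07). Eif1b, the second eIF1 gene, was at 15.3, 16.9 and 15.4 CPM against 25.3, 24.6 and 21.8 CPM. Of the eIF1A genes, Eif1a was at 233.9, 215.9 and 230.9 CPM against 275.8, 290.9 and 301.4 CPM, and X-linked Eif1ax was at 127.8, 119.2 and 124.8 CPM against 169.6, 167.9 and 168.1 CPM. Neither pair of groups overlapped, and the log2 fold change of Eif1ax moved from -0.44 to -0.68 with the length and GC offset.

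All 3 member genes of eIF2, the carrier of the initiator tRNA, were called lower. The alpha subunit Eif2s1, which the eIF2 kinases phosphorylate, fell by 0.57 on the log2 scale, from 304.5 ± 1.93 to 205.5 ± 4.27 CPM (mean ± SD, n = 3 libraries per group). The beta subunit Eif2s2, the highest of them per length, was at 450.9, 437.3 and 456.5 CPM in R783H and at 499.5, 499.4 and 535.0 CPM in WT. The log2 fold change of -0.19 was -0.11 with library size alone as the scaling. Eif2s3x, the X-linked gene of the gamma subunit that holds GTP and the tRNA, had a log2 fold change of -0.27. Per kb of transcript its WT level was 13.5 CPM, against 201.1 for Eif2s2 and 89.4 for Eif2s1. The Y-linked gamma gene Eif2s3y, left out of the members by definition, was called higher, with a log2 fold change of 0.431. Its mean was 73.14 CPM in R783H and 54.23 CPM in WT, and that of Eif2s3x was 40.72 and 49.18 CPM. The values of Eif2s3x are therefore not those of all gamma subunit messages.

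The exchange factor eIF2B, which reloads eIF2 with GTP, had 4 of 5 subunits called lower. Eif2b4, the delta subunit, showed the largest change of the complex, at 82.7, 96.1 and 83.3 CPM in R783H against 147.2, 147.4 and 138.6 CPM in WT. The change was -0.73 on the log2 scale (SE 0.06, edgeR adjusted p = 1.92e-06). Eif2b2 and Eif2b1 had log2 fold changes of -0.54 and -0.50. Eif2b3 had -0.22, and -0.13 with library size alone. Eif2b5, the catalytic epsilon subunit and the highest of the complex per length, was at 479.1, 551.3 and 482.9 CPM against 517.9, 524.0 and 495.3 CPM. Its groups overlapped through R783H B, and its log2 fold change of -0.02 was not called (edgeR adjusted p = 0.741). Without R783H B it was -0.11, with an edgeR adjusted p of 0.0062. Eif2b5 was therefore the exception of its complex when all libraries were used.

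Eif2a and Eif2d, whose proteins can bring tRNA to the small subunit without eIF2, were both called lower. Eif2a, the higher of this pair per length, was at 170.8, 169.5 and 173.5 CPM against 190.5, 189.9 and 185.1 CPM. The difference, a log2 fold change of -0.14, was no longer called with library size alone (-0.06, edgeR adjusted p = 0.216) or without WT B (edgeR adjusted p = 0.0509). For Eif2d the log2 fold change was -0.35.

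The subunits of eIF3, the largest initiation factor and a platform on the small subunit, did not all go one way. Of 14 genes 8 were called lower and 1 higher, 5 were not called, and the median was -0.21. The share called in either direction, 64.3%, was near the 64.5% of all tested genes. By direction it was 57.1% lower and 7.14% higher, against 30.9% and 33.5% of all tested genes. The largest decreases were in Eif3g and Eif3b, RNA-binding subunits, with log2 fold changes of -0.57 and -0.53. Eif3b went from 972.3 ± 39.4 to 672.4 ± 45.0 CPM and Eif3g from 264.6 ± 10.03 to 177.8 ± 11.5 CPM (mean ± SD, n = 3). Eif3e, Eif3d, Eif3l and Eif3m were called lower with log2 fold changes from -0.37 to -0.16; for Eif3m the call was lost with library size alone and with the replicate block plus length and GC offset. Eif3k, the highest per length, was at 283.7, 323.5 and 287.9 CPM against 374.0, 362.2 and 338.6 CPM. Its groups did not overlap, and its log2 fold change of -0.26 was -0.14 with the length and GC offset.

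Among the other subunits, Eif3h was called higher, at 352.2, 392.4 and 347.2 CPM against 339.4, 335.1 and 321.4 CPM, with a log2 fold change of 0.13 (SE 0.05, edgeR adjusted p = 0.0435). R783H C, at 347.2 CPM, lay close to WT A, at 339.4 CPM, and without R783H B the log2 fold change was 0.05 and not called (edgeR adjusted p = 0.182). The call was lost in 8 of 17 alternative settings, among them RLE factors, DESeq2 and leaving out any library other than R783H C. Eif3a, the largest subunit, had values of 1041, 869.1 and 1055 CPM against 868.4, 913.6 and 966.4 CPM. Here R783H B was the low library, the log2 fold change was 0.11 (edgeR adjusted p = 0.193), and without R783H B it was 0.17 and called (edgeR adjusted p = 0.001). With the length and GC offset it turned to -0.07. For Eif3f, Eif3c and Eif3i the log2 fold changes were 0.06, -0.02 and -0.08, and none was called; without R783H B those of Eif3c and Eif3i were -0.10 and -0.16 and called.

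Levels of eIF3 subunits per kb spanned a wide range. In WT the lowest was Eif3j1 at 1.11 CPM per kb and the highest Eif3k at 394.1, with a median of 214.7, and in R783H the median was 202.4. Eif3j1 and Eif3j2, 2 genes for the loosely held j subunit, are near-identical in sequence, so their reads may have been exchanged. Eif3j1 was at 5.99, 4.26 and 6.68 CPM against 5.64, 6.32 and 6.09 CPM and was not called at a log2 fold change of -0.09, but the length and GC offset made it called lower at -0.30 (edgeR adjusted p = 0.0325). Eif3j2 was at 97.6, 90.7 and 108.9 CPM against 127.5, 138.2 and 139.6 CPM and was called lower.

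**Figure D2:**
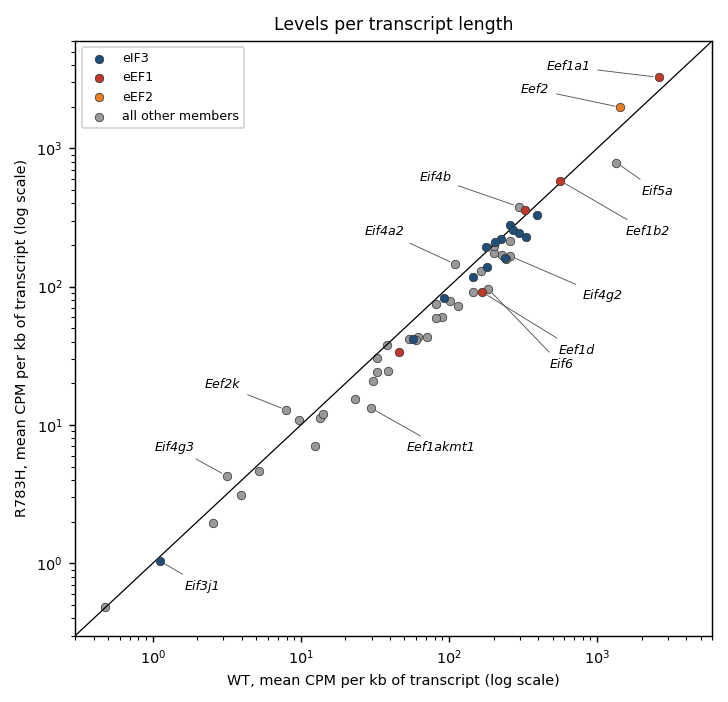
Mean CPM per kb of transcript in R783H (y axis) against WT (x axis), both on a log scale, for the 58 tested members, with eIF3, eEF1 and eEF2 in colour and the line of equal levels. Eef1a1, Eef2 and Eif5a have the highest WT levels, at 2596, 1435 and 1349 CPM per kb, and of these Eif5a lies below the line.

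Among the cap-binding genes the 3 that could be tested were called lower. Eif4e, the cap-binding protein of the loading complex, was at 104.2, 104.9 and 103.1 CPM against 151.6, 153.4 and 152.1 CPM, a log2 fold change of -0.55 with groups far apart. With the length and GC offset the log2 fold change of Eif4e was -0.759. Eif4e2, a cap-binding homologue that represses messages, was at 204.5, 213.2 and 204.1 CPM against 283.1, 289.8 and 274.8 CPM. Eif4enif1, the transporter that carries eIF4E to the nucleus and to P-bodies, had a log2 fold change of -0.11, and its call was lost in 9 of 17 alternative settings. Eif4e3 and the oocyte form Eif4e1b were too low to test, with 11, 14 and 9 counts against 6, 6 and 6 for Eif4e3 and 6, 3 and 6 against 5, 8 and 10 for Eif4e1b.

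The scaffold genes were split. Eif4g1, the main scaffold that links the cap to the ribosome, was at 1195, 1208 and 1206 CPM against 1479, 1453 and 1444 CPM. Eif4g2 (DAP5), which lacks the eIF4E-binding part, was at 1347, 1264 and 1379 CPM against 2064, 2067 and 2087 CPM. This log2 fold change of -0.64 (SE 0.04, edgeR adjusted p = 4.13e-07) was the largest of this group, and was -0.945 with the length and GC offset. That of Eif4g1 was -0.28, or -0.44 with the length and GC offset. Eif4g3, the second cap-dependent scaffold, was higher, at 36.5, 31.1 and 36.9 CPM against 23.6, 27.1 and 26.3 CPM. The increase of 0.44 on the log2 scale was 0.15 with the length and GC offset (edgeR adjusted p = 0.0456). Per kb Eif4g3 was at 4.29 CPM in R783H and Eif4g1 at 213.3, so the scaffold that was higher is the minor one by message level.

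Helicase genes also moved in both directions. Eif4a1, the principal RNA helicase of the cap complex, was at 300.6, 307.1 and 297.6 CPM against 412.6, 399.1 and 397.4 CPM, a log2 fold change of -0.42. Its close homologue Eif4a2 was at 414.3, 364.6 and 406.3 CPM against 282.7, 296.3 and 311.9 CPM, a log2 fold change of 0.41 (SE 0.06, edgeR adjusted p = 7e-05). In every R783H library Eif4a1 was below, and Eif4a2 above, all WT libraries. Eif4a3, a core protein of the exon junction complex, was at 134.0, 147.9 and 134.3 CPM against 232.2, 220.1 and 209.1 CPM. Eif4a3l1, a gene of similar sequence, had a log2 fold change of -0.37 and was not called (edgeR adjusted p = 0.0569). Without R783H B it was called lower at -0.53 (edgeR adjusted p = 0.00748), as it was with RLE factors and with thinned counts.

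The helicase cofactors Eif4b and Eif4h went opposite ways. Eif4b, which stimulates eIF4A and belongs to the TOP class, was at 1433, 1516 and 1434 CPM against 1147, 1124 and 1139 CPM, a log2 fold change of 0.36. Eif4h, which has a related activity, was at 429.0, 441.1 and 430.4 CPM against 683.7, 660.4 and 643.9 CPM. The log2 fold change was -0.61, with the smallest adjusted p of all members (edgeR, 3.86e-07). Neither has a near-identical stretch or exon overlap with another gene.

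**Figure D3:**
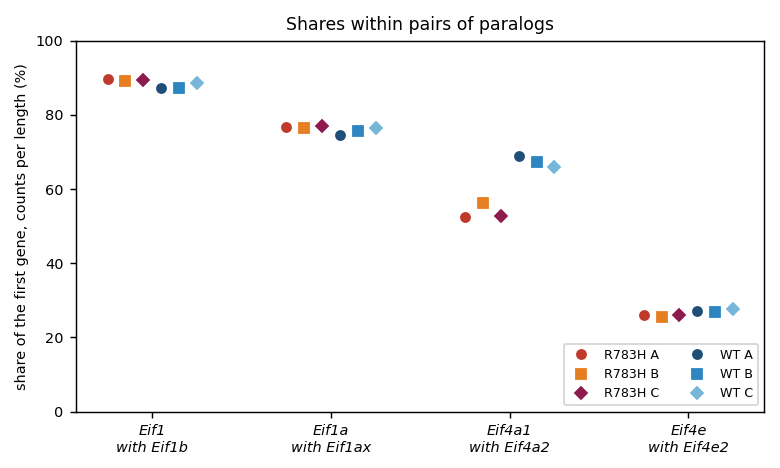
Share of the first gene in the summed counts per length of 4 pairs of paralogs (y axis, percent), 1 point for each library. The share of Eif4a1 lies at 52.6% to 56.3% in R783H and at 66.0% to 69.0% in WT, and the other pairs shown differ by at most 1.65 percentage points.

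Shares within pairs of paralogs were compared for 8 pairs, with counts divided by transcript length. Eif4a1 made up 52.6%, 56.3% and 52.8% of the Eif4a1 and Eif4a2 sum in R783H and 69.0%, 67.3% and 66.0% in WT. The means were 53.9 ± 2.07% and 67.5 ± 1.49% (SD, n = 3), a difference of -13.6 percentage points. A two-sided exact permutation test gave p = 0.1, the smallest that 3 against 3 libraries allow, and 0.114 after Benjamini-Hochberg adjustment over the 8 pairs. These helicase genes each have a near-identical stretch elsewhere and overlap other annotated genes, so the share depends on how such reads were counted.

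Differences in the other pairs were at most 1.65 percentage points. The share of Eif1 with Eif1b was 89.4 ± 0.27% against 87.7 ± 0.84%, that of Eif1a with Eif1ax 76.8 ± 0.18% against 75.6 ± 0.92%, and that of Eif4e with Eif4e2 25.9 ± 0.35% against 27.3 ± 0.46%. Eif4g1 made up 98.03 ± 0.19% against 98.8 ± 0.10% of its sum with Eif4g3. For the near-identical Eif3j1 and Eif3j2 the share of the first was 2.43 ± 0.35% against 1.92 ± 0.05%. In each of these pairs the groups did not overlap, and the exact permutation p was again 0.1. The difference for Eif1a with Eif1ax, 1.18 percentage points, was 0.683 without WT A. For Eif5a with Eif5a2 the groups overlapped, with 99.6% against 99.7%, and the exact permutation p was 0.3. Eef1a2 had so few counts that Eef1a1 made up at least 99.99% of their sum in every library. Where the first gene makes up nearly the whole sum, its share can move by few points. The log2 ratio of raw counts, first gene over second, changed by -0.718 for Eif4g1 with Eif4g3 and -0.427 for Eif5a with Eif5a2. It changed by -0.828 for Eif4a1 with Eif4a2 and 0.334 for Eif3j1 with Eif3j2. The changes were 0.233 for Eif1 with Eif1b, -0.104 for Eif4e with Eif4e2 and 0.093 for Eif1a with Eif1ax. For Eef1a1 with Eef1a2 the change was 2.333, the largest of the 8 pairs, but it rests on the few counts of Eef1a2.

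Eif5 and Eif6 showed some of the largest decreases. Eif5, which makes eIF2 hydrolyse its GTP at the start codon, was at 303.1, 273.0 and 303.9 CPM against 449.2, 464.5 and 477.1 CPM, a log2 fold change of -0.66. Eif6, which keeps the large subunit from joining too early, was at 135.3, 163.1 and 134.4 CPM against 292.7, 273.9 and 261.9 CPM. This is 52.2% of the WT mean, a log2 fold change of -0.94 (SE 0.07, edgeR adjusted p = 1.15e-06). R783H B was the highest R783H library for Eif6 and still below every WT library. Eif5b, the GTPase that joins the subunits, had 306.9, 263.5 and 316.7 CPM against 274.3, 289.3 and 334.3 CPM. Its groups overlapped and it was not called (log2 fold change -0.02), but the length and GC offset made it called lower at -0.31.

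Eif5a and Eif5a2 encode the hypusine-carrying factor that helps ribosomes through difficult peptide bonds such as runs of proline. Eif5a, which only Eef1a1 and Eef2 exceeded per length in WT, was at 1057, 1245 and 1102 CPM against 2006, 1912 and 1897 CPM. The log2 fold change was -0.77 (SE 0.06, edgeR adjusted p = 9.25e-07). Eif5a2 was much scarcer, at 16.7, 12.6 and 17.6 CPM against 18.4, 21.04 and 19.7 CPM. A log2 fold change of -0.34 was called, which ranged from -0.60 with the length and GC offset to -0.23 without R783H B, and the call was lost with library size alone (edgeR adjusted p = 0.0769) and without WT B (edgeR adjusted p = 0.0883).

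Elongation factors contained the most abundant messages of the family, and these were higher in R783H. Eef1a1, which delivers charged tRNAs, was at 5856, 6177 and 5537 CPM against 4710, 4638 and 4625 CPM. This was 125.7% of the WT mean, a log2 fold change of 0.33 (SE 0.05, edgeR adjusted p = 8.03e-05). Eef2, the translocase, was at 5975, 6658 and 5715 CPM against 4627, 4426 and 4244 CPM, 138.0% of the WT mean and a log2 fold change of 0.46 (SE 0.06, edgeR adjusted p = 3.67e-05). All R783H libraries lay above all WT libraries for both genes, and R783H B was the highest. The tissue-restricted isoform Eef1a2 had 2, 4 and 3 counts against 8, 9 and 9 and did not pass the filter on low counts. It was tested in 2 alternative settings and called lower in both, with log2 fold changes of -1.953 and -1.891 at these few counts.

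The exchange factor of eEF1A, eEF1B, did not follow a single direction. Eef1d, the delta subunit, was at 252.3, 289.0 and 236.4 CPM against 494.9, 482.9 and 454.3 CPM, 54.3% of the WT mean. The log2 fold change of -0.88 (SE 0.07, edgeR adjusted p = 9.96e-07) stood beside 0.15 for the gamma subunit Eef1g and 0.04 for the beta subunit Eef1b2. Eef1b2, whose window holds a run of only 4 nt, was not called (edgeR adjusted p = 0.497). Eef1g was called higher, at 654.7, 717.7 and 638.1 CPM against 625.1, 603.5 and 584.3 CPM, but the call was lost in 6 of 17 alternative settings; without R783H B the log2 fold change was 0.075 and the edgeR adjusted p 0.0597. Eef1e1, a part of the multi-tRNA synthetase complex named with this family, fell by 0.44 on the log2 scale.

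**Figure D4:**
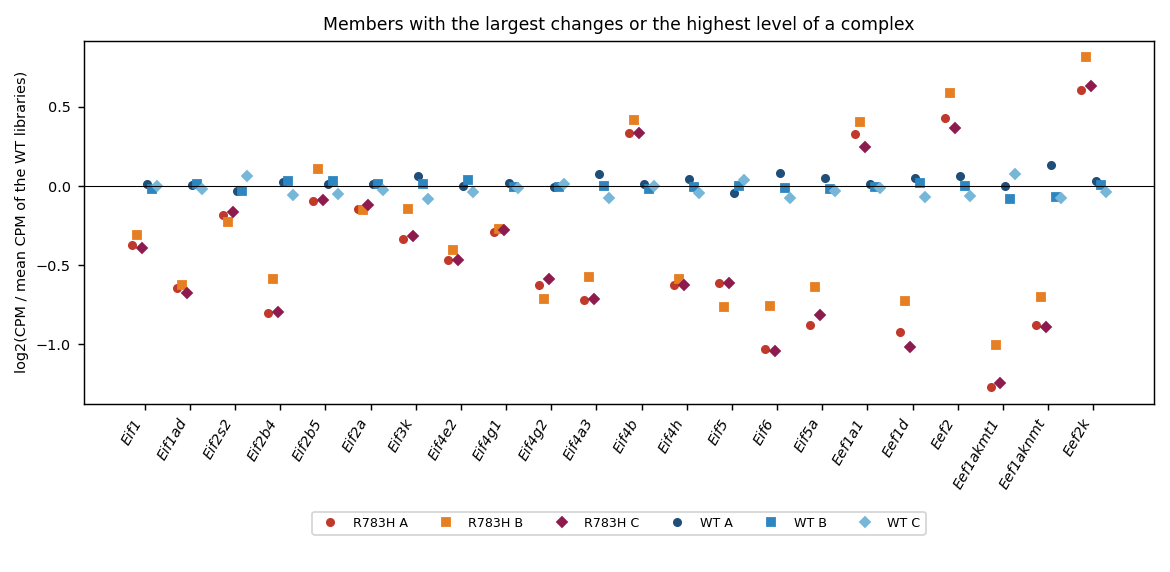
Log2 of the CPM in each library over the mean CPM of the WT libraries (y axis) for the members with the 12 largest changes and for the member with the highest level per length in each complex (x axis); each point is a library. The 3 R783H points lie above all WT points for Eif4b, Eef1a1, Eef2 and Eef2k, Eif2b5 is mixed, and the R783H points of the rest lie below.

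The summed message of the family overlapped between the groups. All members together gave 29472 ± 1193 CPM for R783H and 30154 ± 466 CPM for WT (mean ± SD, n = 3), with ranges of 28540 to 30817 and 29709 to 30638 CPM. Eef1a1 and Eef2 together were at 11831, 12835 and 11252 CPM against 9338, 9064 and 8869 CPM. The members without them were at 17228, 17982 and 17288 CPM against 21301, 21051 and 20841 CPM. These 2 parts differed in opposite directions, each with groups that did not overlap. The split set apart 2 genes already called higher, so it is a description only. The members without them still held genes called higher, such as Eif4b and Eif4a2.

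Enzymes that modify elongation factors gave both ends of the range. Of these 6 genes 3 were called, or 50%, against 64.5% of all tested genes. Eef2k, the kinase that phosphorylates and inhibits eEF2, was at 79.95, 92.2 and 81.2 CPM against 53.6, 52.6 and 51.2 CPM. At 0.69 the log2 fold change (SE 0.06, edgeR adjusted p = 2.79e-06) was the largest increase of all members, and the length and GC offset lowered it to 0.44. Eef1akmt1, a lysine methyltransferase of eEF1A, was at 10.9, 13.1 and 11.1 CPM against 26.2, 24.8 and 27.6 CPM. This was 44.6% of the WT mean and the largest decrease, at -1.17 (SE 0.08, edgeR adjusted p = 6.57e-07). Eef1aknmt, which methylates the N terminus and a lysine of eEF1A, was at 30.9, 35.0 and 30.6 CPM against 62.2, 54.2 and 54.0 CPM, a log2 fold change of -0.82. Eef2kmt, Eef1akmt2 and Eef1akmt3 were not called, with log2 fold changes of 0.16, -0.16 and 0.02; Eef2kmt was called higher with library size alone and with the length and GC offset (0.20, edgeR adjusted p = 0.00609).

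Members of the TOP class are counted here beside the other members. The class list, from general knowledge, held Eef1a1, Eef1b2, Eef1d, Eef1g, Eef2, Eif3e, Eif3f, Eif3h and Eif4b. Of these 9, 5 were called higher (Eef1a1, Eef1g, Eef2, Eif3h and Eif4b) and 2 lower (Eef1d and Eif3e), and the median log2 fold change was 0.13; among all tested genes 33.5% were called higher and 30.9% lower. Of the 49 tested members outside the list 3 were called higher and 36 lower, and the median was -0.35. The difference between the lists was not tested, and the calls of Eef1g and Eif3h are among those lost in some alternative settings. Among the windows shown, the run was at least 8 nt long in Eef1a1, which rose, and in Eif3f and Eif2b5, which were not called. In Eef1a1 this run may lie before the start used. It was 7 nt long in Eef2 and Eif4b, which rose. Over all 47 members with a window, 13 had a run of at least 8 nt. Of these, Eif2s3x, Eif3k, Eif3m, Eif4e, Eif4enif1, Eif3l and Eif2b2 were called lower, and Eef1a1 and Eef2k higher. Eif3f, Eif2b5 and Eef1akmt2 were not called, and Eef1a2 did not pass the filter on low counts. A link between run and direction was not tested.

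Other genes of the translation machinery were read from lists of general knowledge, each against the 30.9% of all genes called lower and 33.5% called higher. Genes acting on eIF2 phosphorylation had 5 of 8 called higher, 1 called lower and a median of 0.24. Their 2 largest changes were the amino-acid-sensing kinase Eif2ak4 (log2 fold change 0.32) and the phosphatase subunit Ppp1r15b (0.31). Regulators of eIF4E had 5 of 11 higher and 3 lower, with a median of 0.09. Among them Mknk2, a kinase of eIF4E, fell by 0.60 on the log2 scale, and Eif4ebp3, a binding protein that holds eIF4E from the scaffold, rose by 0.36.

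The other lists held more genes called lower than higher. Of the 7 tested termination and recycling genes 6 were called lower and 0 higher, with a median of -0.51, and Mcts2 and the release factor Etf1 changed most, with log2 fold changes of -0.79 and -0.61. Among poly(A)-binding proteins and their partners 3 of 5 were lower and 1 higher, led by Pabpc1 (-0.41) and Paip2 (-0.35). Of 6 other initiation helpers 5 were lower, led by Bzw2 (-0.64) and Bzw1 (-0.57), and the Y-linked eIF2 gamma gene Eif2s3y was higher at 0.43. The enzymes that make hypusine on eIF5A and diphthamide on eEF2 had 6 of 8 lower and 0 higher, with Dph3 at -0.97 and the hypusine hydroxylase Dohh at -0.64. Mitochondrial factors had 3 of 8 lower and 0 higher, among them Tufm (-0.49) and Tsfm (-0.31), and a median of -0.16.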

How the data were processed

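Poly(A)-selected RNA was sequenced from 3 R783H and 3 WT libraries, and libraries were assigned to groups by their titles. The authors deposited a table of read counts per gene with Entrez identifiers; the values are whole numbers, their totals differ between libraries, and they were taken as raw counts. CASAVA 1.4, HISAT2, SAMtools and the build mm10 are named in the submitters' processing notes; the counting tool, annotation and strand setting are not given in the sources used here. No column was without a sample (0). Symbols came from a RefSeq gene table of GRCm38.p6, which matched 25275 of 27179 identifiers. The members, complexes and gene lists were chosen with earlier results of these data known, from general knowledge of translation, and give no independent support to any pattern.

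R 4.3.3 with edgeR 4.0.16 was used. Genes were kept with filterByExpr (minimum count 10, minimum total 15), scaled with TMM factors and tested by edgeR's quasi-likelihood test (group as the single term, Benjamini-Hochberg adjustment over 14199 genes); a gene was called at an adjusted p under 0.05. CPM is the count relative to the scaled library size, and levels between genes were compared per kb of transcript. The SE was taken as the absolute log2 fold change over the square root of F. The common biological coefficient of variation was 5.45%. Reads carry no molecular identifiers, so the floor of 3 counts covers counting error only. The fit was tested on simulated data. Copies of members were searched with BLAST 2.17.0.

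Values in every library are given for the 12 called members with the largest change among those with a mean of at least 50 counts in the higher group, for the member of each complex with the highest level per length, and for both genes of a pair of paralogs where one was called; of each list the 2 called genes with the largest change are named. Other members shown by library (Eif3h, Eif3a, Eif5b and Eef1g, and the untested Eif4e3 and Eif4e1b) were chosen after their values were seen. Alternatives were RLE and upper-quartile factors, library size alone, 2 other filters, DESeq2 1.42.0, limma-voom (limma 3.58.1), an offset for transcript length and GC content (splines with 5 degrees of freedom), thinning to the smallest total, the replicate block with and without that offset, and leaving out each library.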

Additional observations from a re-analysis of the deposited data

How the results depend on the processing

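The numbers of members called ranged from 6 to 11 higher and from 34 to 42 lower over 17 alternatives, and 40 of 46 called members were called in every alternative that tested them. The calls of Eef1g, Eif2a, Eif3h, Eif3m, Eif4enif1 and Eif5a2 were lost in some, and Eef1b2, Eef2kmt, Eif2b5, Eif3a, Eif3c, Eif3i, Eif3j1, Eif4a3l1 and Eif5b gained a call in 1 to 3 settings; the cause was not tested. Eef1a2, filtered out in the main fit, was called lower in the 2 alternatives that tested it. Whether the same letter pairs libraries across the groups is not in the labels. Deviations from the group means correlated at -0.07, 0.01 and 0.09 for A, B and C. For unlike letters they reached 0.126 (R783H B with WT A) and -0.133 (R783H B with WT C), so these correlations cannot settle pairing. With the replicate block 8 members were called higher and 37 lower, and 9260 genes in all against 9152.

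The median log2 fold change of the members was -0.343 with RLE factors and with DESeq2, -0.240 with library size alone, and -0.361 to -0.290 when a library was left out. With library size alone the median was 0.124 for eEF1, -0.362 for eIF1 and eIF1A, -0.422 for eIF2B, -0.129 for eIF3 and 0.012 for the modifying enzymes, the last a change of sign. Leaving out a library gave -0.040 to 0.072 for eEF1, with the sign turned without R783H B, and -0.480 to -0.439 for eIF1 and eIF1A, -0.570 to -0.483 for eIF2B, -0.255 to -0.204 for eIF3, -0.493 to -0.331 for the helicase genes and -0.267 to -0.012 for the modifying enzymes. The differences in paralog shares kept their direction when any library was left out, with -14.8 to -12.8 percentage points for Eif4a1 with Eif4a2, 0.683 (without WT A) to 1.59 for Eif1a with Eif1ax and -0.162 (without R783H B) to -0.0782 for Eif5a with Eif5a2.

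The sign turned only in members that were not called with all libraries. With library size alone the log2 fold change was 0.058 for Eif2b5, 0.058 for Eif3c, 0.005 for Eif3i and 0.065 for Eif5b. The length and GC offset gave -0.068 for Eif3a and 0.032 for Eif3i, and -0.069 and 0.032 with the replicate block added. Eef1akmt3 was at -0.005 with RLE, -0.011 with DESeq2, -0.019 with limma-voom, -0.008 with the offset, -0.004 with the replicate block and -0.027 with block and offset. Leaving out a library gave -0.268 to 0.138 for Eef1akmt3, -0.040 to 0.072 for Eef1b2, -0.036 to 0.090 for Eif3f, -0.242 to 0.048 for Eif3j1 and -0.080 to 0.066 for Eif5b. Without R783H B the sign turned for Eef1b2 (-0.040), Eif3f (-0.036), Eif3j1 (0.048) and Eif5b (0.036). In each case the cause was not tested. Members at a few counts per library, such as Eef1a2, Eif4e3 and Eif4e1b, are limited by depth.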
